A study of Caenorhabditis elegans with 2 samples.

Results

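dmd-7 and dmd-8 are genes on chromosome V of the nematode Caenorhabditis elegans, and the data describe where the related protein DMD-6 was found on the DNA around them. All 3 genes encode DM-domain proteins. The 2 genes, of 19973 protein-coding genes on the nuclear chromosomes, were chosen by the signal of these same peaks, because theirs were the strongest in the DM-domain family. Their signals are therefore given as a description and no test was made on them. Each gene was taken with 5 kb on each side, and 10 of the 7338 peaks in the list called on both replicates together had their summits there.

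The worms were of strain RJP5356 and carried the allele rp168, a CRISPR insertion written dmd-6::GFP::AID::TEV::3xFLAG on chromosome IV. The insertion puts GFP, an auxin-inducible degron, a protease site and an epitope tag onto DMD-6 made from its own gene. Animals were starved as L1 larvae after bleaching and collected whole as L4 larvae, at an age of 48 hours, with no sex recorded. Chromatin was sonicated and precipitated with an antibody to GFP (the antibody field of the labels names dmd-6), and the DNA was sequenced (ChIP-seq). The 2 biological replicates form the only group, nothing was compared with them, and all peaks come from whole animals, so the lists do not say in which cells the protein sat. The number of reads is unknown, and with 2 samples no test across samples was possible. Signals are the authors' values for each peak and can be compared only within a list.

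The DM domain is a zinc-containing DNA-binding domain named after Doublesex of the fruit fly and MAB-3 of C. elegans. Proteins with this domain are transcription factors that shape male and female traits in many animals, and several also act in tissues that are alike in both sexes. A peak in ChIP-seq is a stretch of DNA recovered more often than the surrounding DNA, and its summit is the position where the recovery was highest. A peak shows where the protein was found and not whether the gene beside it changed its expression.

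The DNA at the summits is shown first, because the results on short DNA words rest on it. Peaks are numbered along the chromosome within each gene's window. The sequences come from the RefSeq copy of assembly WBcel235 and give the plus strand from 5′ to 3′. Capitals mark a match to any of the 6 words searched, and sequences without capitals hold none of them. The first 3 lines are the summits of dmd-7 that lie outside its exons and were found in both replicates, which leaves out the weak peak 2. They are at chrV:6243424-6243524, chrV:6246659-6246759 and chrV:6251359-6251459.
dmd-7 peak 1: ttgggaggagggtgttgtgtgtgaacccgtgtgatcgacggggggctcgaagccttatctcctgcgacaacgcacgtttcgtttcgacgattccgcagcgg
dmd-7 peak 3: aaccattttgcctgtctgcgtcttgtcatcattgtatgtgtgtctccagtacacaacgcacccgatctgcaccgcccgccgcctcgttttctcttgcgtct
dmd-7 peak 7: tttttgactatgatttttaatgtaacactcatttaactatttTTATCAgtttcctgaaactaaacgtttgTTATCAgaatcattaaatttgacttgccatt

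Short stretches around the word matches are given for a pair of weaker dmd-7 summits, because these lie in an annotated 5′ UTR. They are at chrV:6247709-6247737 and chrV:6248921-6248949.
dmd-7 peak 5: gatagtatgggTGATAAatcttgtagcag
dmd-7 peak 6: cttttatcggtcatCACGTGttttctctt

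All 3 summits of dmd-8 are shown, since each holds the same word. They are at chrV:331382-331482, chrV:332771-332871 and chrV:333844-333944.
dmd-8 peak 1: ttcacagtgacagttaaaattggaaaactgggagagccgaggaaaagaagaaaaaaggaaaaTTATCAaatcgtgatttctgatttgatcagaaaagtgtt
dmd-8 peak 2: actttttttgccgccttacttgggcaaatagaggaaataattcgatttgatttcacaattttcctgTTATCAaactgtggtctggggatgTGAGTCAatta
dmd-8 peak 3: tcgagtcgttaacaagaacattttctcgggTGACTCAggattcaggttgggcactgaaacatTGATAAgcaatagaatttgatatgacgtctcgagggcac

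dmd-7 (WBGene00019521) runs on the plus strand of chromosome V from 6246931 to 6252458 in WBcel235. It had 7 peaks, spread from 3457 bp upstream of its annotated start to an intron near its 3′ end. The strongest of them lay at the start of the gene. The annotation gives 2 transcripts, K08B12.2.2 from position 6246931 and K08B12.2.1 from position 6249172. Both use the same coding sequence, and the first exon of the longer transcript, 2360 bp, is 5′ UTR up to its last 5 bp. The nearest protein-coding gene to the left, K08B12.3, ended 9196 bp away, and the nearest to the right, mrck-1, which encodes a protein kinase, ended 4931 bp away.

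The strongest peak of dmd-7, peak 3, ran from 6246466 to 6246901 with its summit 222 bp upstream of the longer transcript. Its signal was 874.8 in the list called on both replicates, which is rank 40 of 7338, 542.5 in replicate 1 (rank 30 of 6533) and 319.7 in replicate 2 (rank 90 of 4653). It led the window in all 3 lists, and the summits of the replicates lay 5 and 1 bp from the summit of the joint call. A pair of short non-coding RNA genes of unknown role, K08B12.6 on the plus strand and K08B12.8 on the minus strand, overlap this summit, so the peak also lies at the start of K08B12.6.

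Peak 1 lay furthest upstream, from 6243323 to 6243612, with its summit 3457 bp before the annotated start. It had a signal of 610.6 (rank 167), with 371.1 in replicate 1 and 242.8 in replicate 2. No annotated gene overlapped the summit, and no protein-coding gene started nearer to it than dmd-7. This was the second strongest peak of the window in each of the 3 lists.

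Peak 4, from 6247334 to 6247741, had its summit 580 bp inside the first exon of the longer transcript. Its signal was 558.2 (rank 221), with 350.4 in replicate 1 and 202.8 in replicate 2. On the shorter transcript this position is upstream of the gene. Peak 5 is a further summit of the same enriched stretch, 212 bp beyond that of peak 4, with a signal of 10.93 in the joint call and 72.21 in replicate 1, where the summit was 38 bp away. Replicate 2 had a single summit in this stretch, 202 bp from that of peak 5, and so held no separate summit for it.

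Peak 7, from 6251272 to 6251520, had its summit in the last intron, 4478 bp from the annotated start. Its signal was 305.5 (rank 1101), with 189.5 in replicate 1 and 112.8 in replicate 2. It was the fourth strongest of the window in each list. The order peak 3, peak 1, peak 4, peak 7 was thus the same in the joint call and in both replicates.

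The other peaks of dmd-7 were weak. Peak 6, from 6248744 to 6249087, had its summit 256 bp upstream of the start of the shorter transcript, with a signal of 84.66 (rank 5920) and of 59.35 in replicate 1. In replicate 2 it was only in the ranked list, which keeps peaks below the reproducibility threshold, with a signal of 31.39. Peak 2, from 6244716 to 6245059, with a signal of 72.26 (rank 6517), lay over the non-coding RNA gene K08B12.9. It was below the threshold in each replicate, where its signals were 33.77 and 34.52, and was absent from the conservative list. The annotated start of the transcript with the short 5′ UTR therefore had a weak peak beside it, and that of the transcript with the long one had the strongest.

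**Figure D1:**
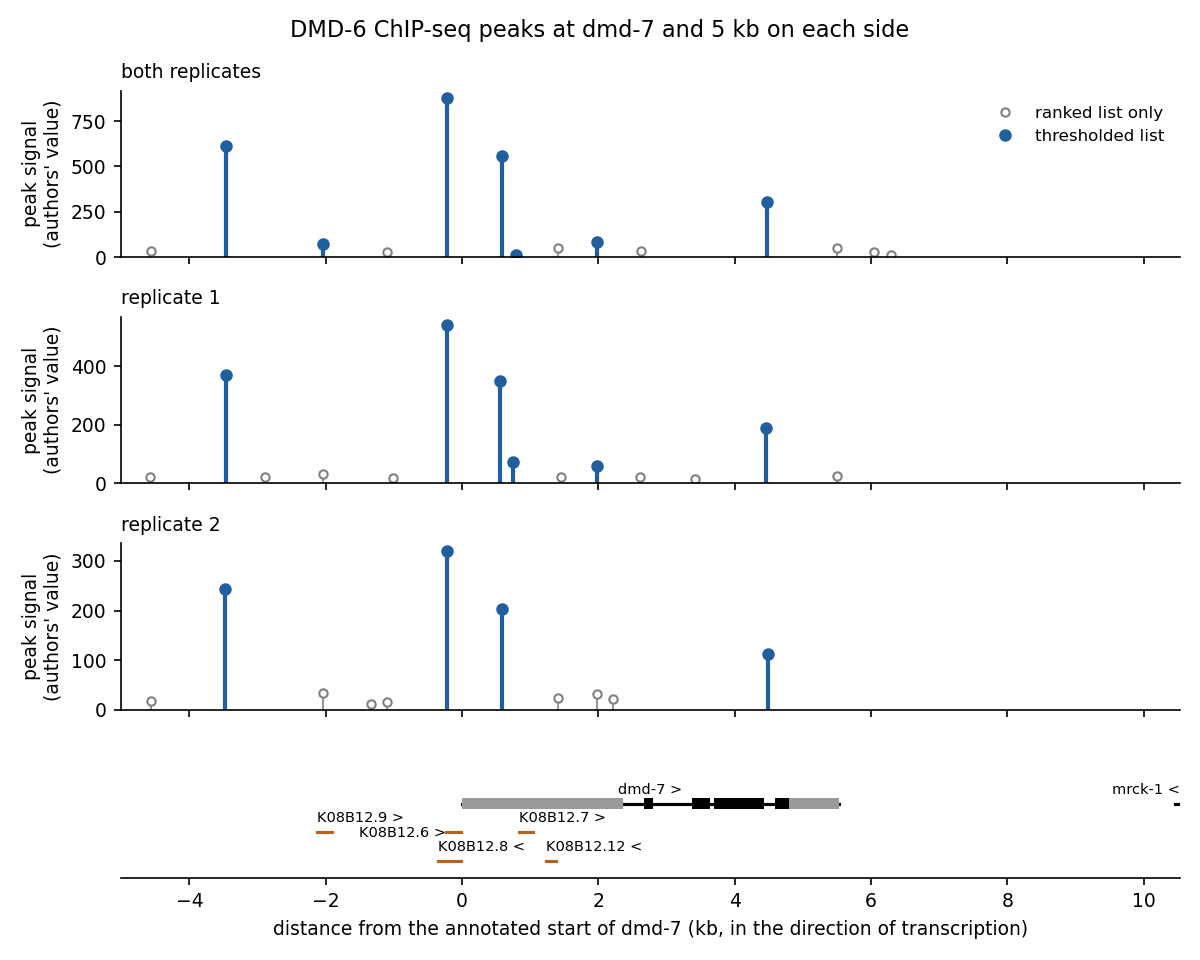
Signal of each peak (authors' value, a scale of its own in each panel) against distance in kb from the annotated start of dmd-7, in the joint call and in replicates 1 and 2; filled points are thresholded peaks, open points entries of the ranked list only, and the bottom row shows genes, with coding sequence of dmd-7 in black, UTRs in grey and non-coding RNA genes in brown. The 4 tallest filled points stand at the same positions in all 3 panels, the highest 222 bp upstream of the start with 874.8, 542.5 and 319.7.

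dmd-8 (WBGene00020708) runs on the minus strand from 334601 to 336450, with 1 annotated transcript of 4 exons. It had 3 peaks, and all of them lay beyond its 3′ end. No thresholded peak lay inside the gene or in the 5 kb upstream of its start. The 3 peaks lie in the 3875 bp between dmd-8 and abt-4, which encodes a transporter of the ABC family and is transcribed in the same direction. This interval is downstream of dmd-8 and upstream of abt-4, and abt-4 with 5 kb on each side held the same number of peaks, 3, with the same highest signal of 535.0. By position the peaks cannot be assigned to either gene.

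The strongest, peak 3, from 333753 to 334034, had its summit 707 bp past the end of dmd-8 and 3169 bp upstream of abt-4. Its signal was 535.0 in the joint call (rank 259), 344.7 in replicate 1 (rank 179) and 190.7 in replicate 2 (rank 424). Peak 2, from 332684 to 332942, lay 1780 bp past dmd-8 and 2096 bp upstream of abt-4. Its signal was 430.7 (rank 498), with 304.8 in replicate 1 (rank 291 of 6533) and 136.6 in replicate 2 (rank 912 of 4653). Both peaks were in both replicates, with summits at most 15 bp from those of the joint call.

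Peak 1, from 331260 to 331603, was nearest to abt-4, with its summit 707 bp upstream of that gene and 3169 bp past dmd-8. It had a signal of 119.1 (rank 4363) and of 85.04 in replicate 1, and in replicate 2 it was in the ranked list only, with 37.07. The order of the 3 peaks was the same in the joint call and in each replicate, rising from abt-4 towards dmd-8. Upstream of dmd-8, the ranked list of the joint call held 3 entries, with summits at 339870, 340071 and 340286, and the highest, 3420 bp from the start, had a signal of 56.85. The next protein-coding gene on that side, wago-10, which encodes a protein of the Argonaute family, began 6977 bp from dmd-8.

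**Figure D2:**
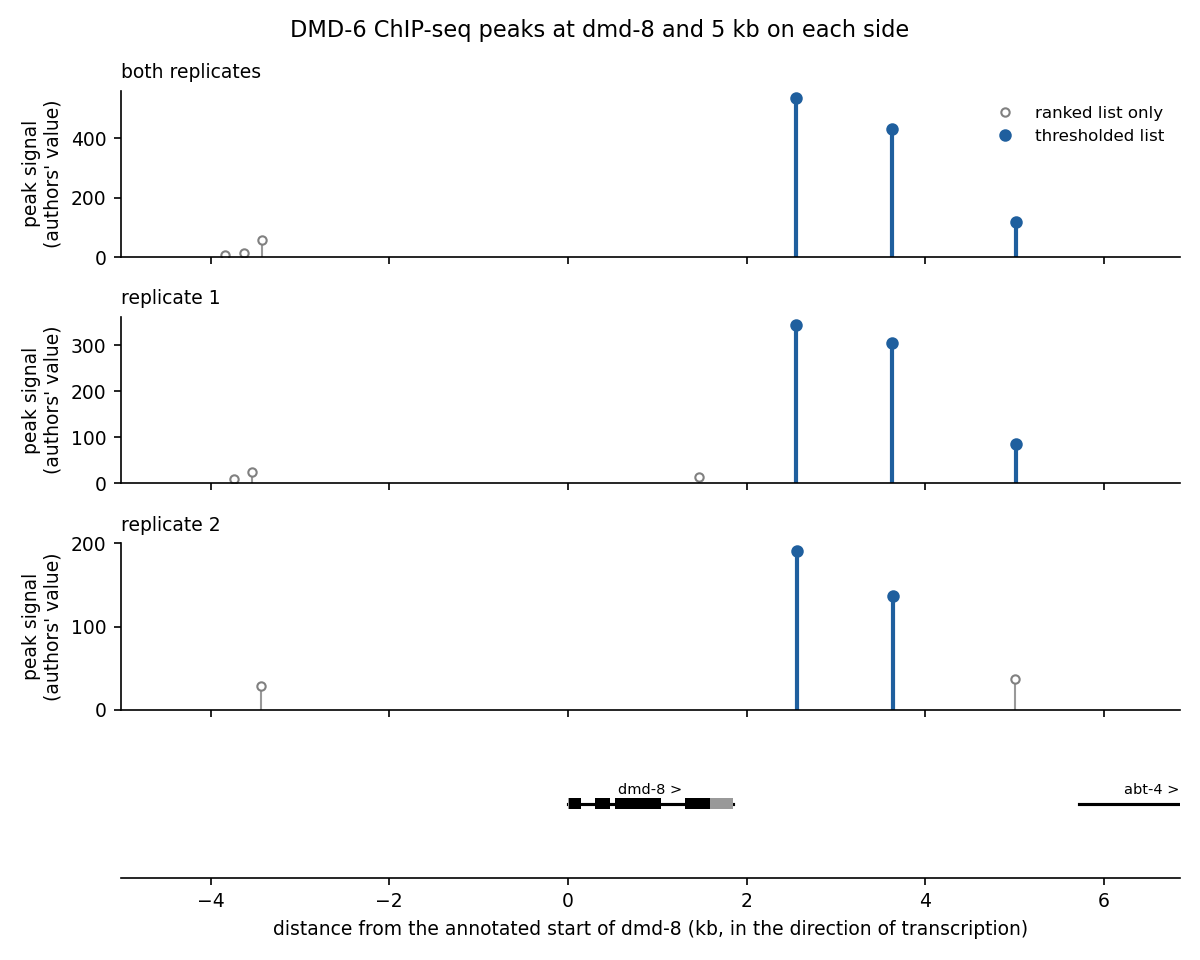
Signal of each peak (authors' value, a scale of its own in each panel) against distance in kb from the annotated start of dmd-8, in the direction of transcription, drawn as for dmd-7. The filled points all lie past the end of the gene, the highest with 535.0, 344.7 and 190.7, between dmd-8 and the start of abt-4 at the right edge.

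The threshold used by the authors corresponds to a −log10 of the irreproducible discovery rate (IDR) of 2. IDR estimates the share of irreproducible peaks among those at least as reproducible as the peak in question, from ranks in a pair of peak calls. In the joint call, the peak of the dmd-7 window just inside was peak 2, with 2.03, and the entry just outside reached 1.09, with a signal of 51.9 at the 3′ end of the gene. For dmd-8 the values were 3.28 for peak 1 and 0.35 for the highest entry outside. Peaks 1, 3, 4, 5 and 7 of dmd-7 and peaks 2 and 3 of dmd-8 were at 5, the highest value the list gives. Of these, peak 5 is the weak further summit in the stretch of peak 4, with a signal of 10.93. In the conservative ranked list its value was only 2.69. The windows held a further 7 and 3 ranked entries below the threshold.

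In both replicates, a thresholded peak overlapped 7 of these 10 by at least 1 bp, against 58.5% of all peaks in the joint list. With summits required to lie within 100 bp of each other the number was 6, against 55.5% of all peaks, since peak 5 of dmd-7 shares its stretch with peak 4. All 10 overlapped an entry of the ranked list of each replicate, against 96.4% of all peaks, and 9 overlapped a peak of the conservative list, against 84.7%. With 10 peaks, these counts are near the shares over the whole list.

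**Figure D3:**
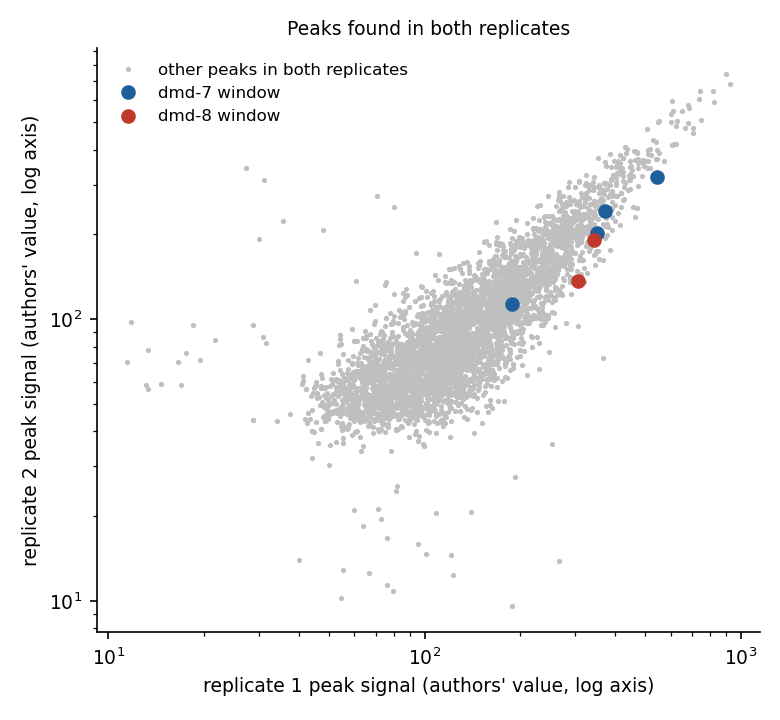
Signal in replicate 2 against signal in replicate 1 (authors' values, log axes) for peaks of the joint call found in each replicate's thresholded list; grey points are other peaks, and the 4 blue and 2 red points are the peaks of the dmd-7 and dmd-8 windows with summits within 100 bp. The highest blue point is peak 3 of dmd-7 at 542.5 and 319.7, and the lower red point is peak 2 of dmd-8 at 304.8 and 136.6.

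Windows of this size often hold a peak in the compact worm genome. Of the protein-coding genes, 50.1% had at least 1 peak in the gene with 5 kb on each side, and since such windows overlap, neighbouring genes share peaks. At least 3 peaks, the number of dmd-8, were found for 13.0% of genes, and at least 7, the number of dmd-7, for 0.751%. A peak at least as strong as the strongest of dmd-8 was in the window of 3.35% of genes, and one as strong as that of dmd-7 in the window of 0.411%. These shares describe how far the rule reached and are no support for it, because the signal chose the genes. Longer genes have longer windows: that of dmd-7 covered 15528 bp and that of dmd-8 11850 bp. This came to 4.51 and 2.53 peaks per 10 kb, against 0.732 over the 6 chromosomes.

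**Figure D4:**
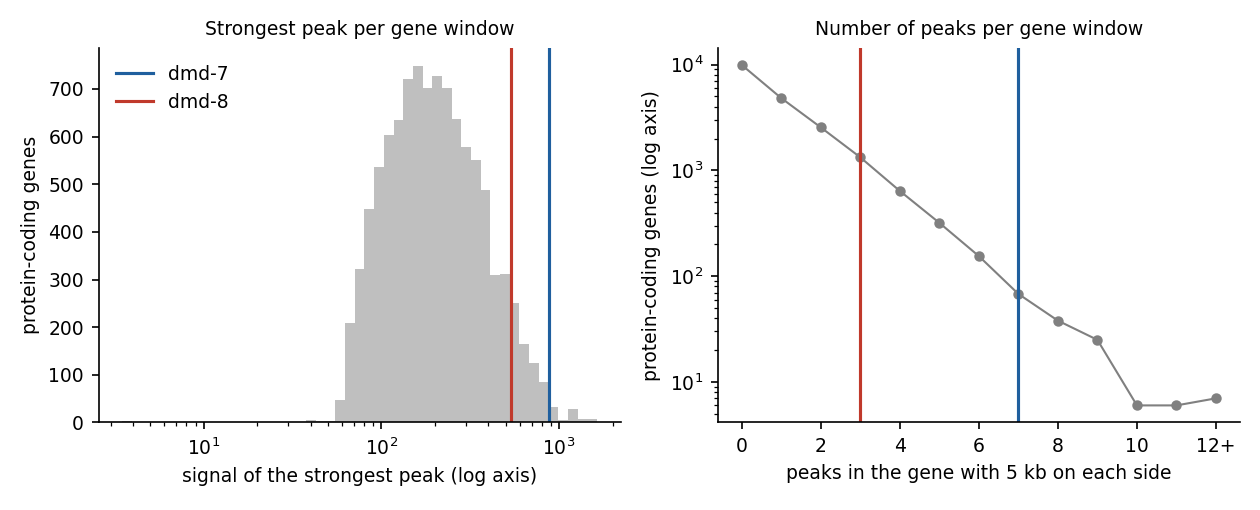
Left, number of protein-coding genes by the signal of the strongest peak in the gene with 5 kb on each side (log axis, genes with a peak); right, number of genes (log axis) by the number of peaks there. Lines mark dmd-7 (blue, 874.8 and 7 peaks) and dmd-8 (red, 535.0 and 3 peaks); 0.411% and 3.35% of all genes reach their signals.

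The windows of the other 8 annotated DM-domain genes held weaker peaks or none. The next in the joint list was mab-3, known for its part in male tail development and in keeping yolk genes off in males, with 4 peaks and a highest signal of 401.0 (222.4 in replicate 1 and 188.1 in replicate 2). It was the gene just outside the choice. dmd-6, the tagged gene itself, followed with 6 peaks and a highest signal of 369.2 (239.3 and 139.5). dmd-4, dmd-5 and dmd-9 had 1 peak each, with signals of 296.8, 161.0 and 158.3. No thresholded peak of the joint call lay in the windows of dmd-3, dmd-10 and mab-23, of which dmd-3 and mab-23 are known for male development. A peak in a window need not belong to the gene. In the joint call the strongest peaks of dmd-7, dmd-8, mab-3, dmd-6, dmd-4 and dmd-9 lay outside these genes, and that of dmd-5 inside.

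dmd-7 stood first and dmd-8 second in the joint call and in each replicate. The signal of these peaks chose the genes, so their place at the top of the family is no result. The distance between dmd-8 and mab-3 was small in replicate 2, at 190.7 against 188.1. The order of mab-3 and dmd-6 turned between the replicates, so these neighbours cannot be placed in order. The same holds for dmd-5 and dmd-9, since dmd-9 had a peak of 111.9 in replicate 1 and none over the threshold in replicate 2.

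**Figure D5:**
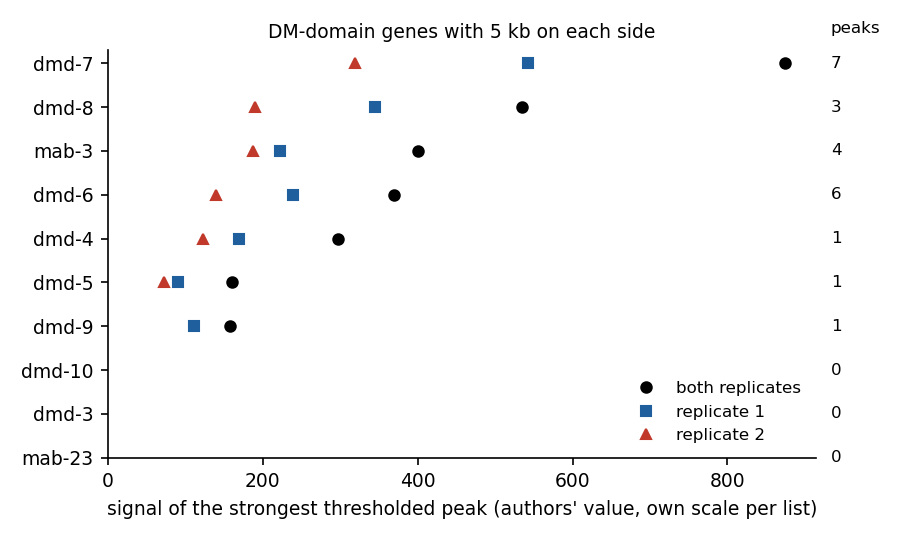
Signal of the strongest thresholded peak (authors' value, scaled separately in each list) in each DM-domain gene with 5 kb on each side, in the joint call (black), replicate 1 (blue) and replicate 2 (red); numbers at the right count peaks of the joint call. dmd-7 and dmd-8, which were chosen by these signals, are at the top in all 3 lists, and dmd-3, dmd-10 and mab-23 have no point.

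The genes most like dmd-7 and dmd-8 were sought among the 7391 protein-coding genes with a peak in all 3 lists. Likeness was the sum over the 3 lists of the differences in the percentage of peaks at least as strong as the gene's strongest. Genes with a window overlapping that of the gene compared were left out. For dmd-7 the closest of the rest were pkg-2, a cGMP-dependent protein kinase gene, fkh-7, a forkhead transcription factor gene, and T13B5.9. In the joint call, replicate 1 and replicate 2, pkg-2 had signals of 875.8, 536.8 and 343.3, and fkh-7 of 868.6, 516.1 and 343.6. Those of T13B5.9 were 811.8, 486.2 and 323.5. The differences summed to 0.417, 0.521 and 0.627 percentage points. For dmd-8, abt-4 was left out by this rule, although it holds the same strongest peak, with 535.0, 344.7 and 190.7. The closest of the rest was hlh-30, the worm TFEB gene, with 522.3, 340.4 and 189.8 and a sum of 0.622 points. It was followed by mec-10, a touch-receptor channel gene, and nhr-14, a nuclear hormone receptor gene. Both have the same strongest peak, with 558.3, 373.1 and 195.1 and a sum of 1.64 points.

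The 6 words were searched on both strands within 50 bp to either side of each summit. TGATAA, read as TTATCA on the other strand, is 1 form of the site of GATA factors, which in worms include the regulators of the intestine. It was in 5 of the 10 summit windows: all 3 of dmd-8 and peaks 5 and 7 of dmd-7. In dmd-8 the middle of the word lay 14, 18 and 14 bp to the right of the summits of peaks 1, 2 and 3 on the plus strand. Of all 7338 summit windows, 31.4% held this word, against 9.13% and 9.44% of the windows 350 bp to the left and right. Peaks 1, 3 and 4 of dmd-7, its strongest, held none of the 6 words in this window. Other forms of the GATA site were not searched for, so a window without TGATAA may still hold a GATA site. Peak 1 holds TTATCT, which differs from TTATCA in its last letter.

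TGANTCA, the site of AP-1-like bZIP factors, was in peaks 2 and 3 of dmd-8, as TGAGTCA and TGACTCA, and in 3.68% of all summit windows, against 3.00% and 3.12% beside them. CACGTG, the E-box of bHLH factors, was in peak 6 of dmd-7 and in 6.88% of all summit windows, against 1.65% and 1.73%. The words known from sites of DM-domain proteins were in none of the 10 windows. These were TGTTGC (5.86% of all summit windows, against 4.29% and 4.32%), ACAATGT (1.87%, against 1.91% and 1.81%) and ACANTGT (3.57%, against 2.93% and 2.70%), the last of which contains ACAATGT. A match is a description of the letters and not evidence of a bound factor.

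Base composition had a wider range over the 7 summits of dmd-7 than over the 3 of dmd-8, but a range can widen with the number of windows. In the same windows, G and C made up 59.4% at peak 1 and 53.5% at peak 3 of dmd-7, and 24.8% at peak 7. At peaks 2, 4, 5 and 6 of dmd-7 they made up 45.5%, 38.6%, 39.6% and 35.6%. The windows of dmd-8 lay between 33.7% and 43.6%. The median over all summits was 41.6%, and over the windows beside them 33.7%. The central 51 bp of each of the 10 summits occurred once in the genome, on either strand.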

How the data were processed

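ChIP-seq peaks of DMD-6 were taken from 8 deposited lists: each of 2 replicates has 1 thresholded and 1 ranked list, and there are 2 of each kind for both replicates together. The assembly is ce11, per the labels, which is the assembly WBcel235 of the annotation (Ensembl release 115) and the sequence (RefSeq); no peak ran past a chromosome end. Aligner and peak caller: not given in the sources used here. The deposited signal is the authors' value per peak, and how it was calculated is likewise not stated. The deposited ranked lists also give the −log10 of the IDR by the layout the authors name; each thresholded list held only entries of at least 2, an IDR of 0.01, and left out 32 to 45 that reached it. The control experiment the labels name was not used here.

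The larger of the thresholded lists called on both replicates was the joint list. A summit is the deposited offset from the peak start, and coordinates are 1-based. A peak belonged to a gene when its summit lay in the gene or within 5 kb. Positions, ranks, overlaps and words were computed with Python 3.11.15, pandas 2.3.3 and numpy 2.4.6, and the functions were checked on data with planted peaks and words. Depth in reads is unknown, so no interval was computed for a signal. No test was made, because the signals chose the genes and there is 1 group. Exact 95% binomial intervals of shares served only to sort the alternatives by how far they moved.

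The genes, the gene lists and the words were chosen with earlier results of these data known. Genes named are dmd-7 and dmd-8, protein-coding genes in or next to their windows, non-coding genes within 500 bp of a summit and the other DM-domain genes. The 3 genes of most similar pattern per member, among those whose windows do not overlap its window, are also named. dmd-11, on the same list, had no entry of that name in the annotation used. K08B12.7 and K08B12.12, non-coding RNA genes within 500 bp of the summit of peak 5 of dmd-7, also met this rule.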

Additional observations from a re-analysis of the deposited data

How the results depend on the processing

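Across 12 results and 41 alternatives, 26 values stayed within 1.5 times the reported count or within the exact 95% binomial interval of the reported share, and 15 did not. The number of peaks in the dmd-7 window was 7, and 4 to 6 without a replicate, 4 in the stronger part of the list (at or above the median signal) and 14 with no threshold. For dmd-8 it was 3, and 6 with no threshold. The strongest peak of dmd-7 was in the top 0.545% of the joint list and, without a replicate, in the top 0.459 to 1.93%; that of dmd-8 was in the top 3.53% and 2.74 to 9.11%. For dmd-7 the rank was 40 in the joint list, 30 in replicate 1 and 90 in replicate 2. For dmd-8 it was 259, 179 and 424. The lists differ in length, but both peaks ranked lowest in replicate 2, the shortest of these lists. Whether the replicates differ was not tested. The share of genes with a peak, 50.1%, was 34.3% with 2 kb on each side, 66.6% with 10 kb, 34.4% in the stronger part of the list and 38.9 to 48.7% without a replicate. With 100 bp to either side of a summit in place of 50 bp, ACANTGT was in 1 window and TGTTGC in 2, against 0. Of all summit windows of that width, 7.52% held ACANTGT and 11.3% held TGTTGC. With 25 bp TGANTCA was in 1, against 2, and in 1.74% of all summit windows. TGATAA was in 5 of the 10 at each width. Its share over all summit windows was 44.6% with 100 bp, 31.4% with 50 bp and 18.8% with 25 bp. The larger windows, smaller lists and longer sequence windows change these counts by construction. Unknown depth limits every statement that a list holds no peak.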
